A study of Mus musculus with 12 samples.

Results

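Complement and coagulation are cascades of plasma proteases, cofactors and inhibitors, most of them made by hepatocytes and secreted into blood. Complement is started by antibody (C1q with the proteases C1r and C1s), by sugars on microbes (mannose-binding lectins with the MASP proteases) or by slow turnover of C3 that factor B and factor D amplify, and all 3 routes cut C3 and end in the membrane attack complex. Coagulation turns prothrombin into thrombin, which makes fibrin from fibrinogen, and is held back by antithrombin, heparin cofactor II and the protein C system, while plasmin dissolves the clot. C1q is the main exception to hepatocyte origin, since macrophages such as the Kupffer cells of the liver make it, and factor D (adipsin) is known above all as a product of adipocytes.

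The genes described here were 43 named members of both cascades, of 24475 genes in the table, and all 43 had a mean of at least 0.5 RPKM (reads per kilobase of gene, scaled to library size) in at least 1 genotype. Of these, 23 belong to complement and 20 to coagulation; vitronectin (Vtn), which binds both membrane attack complexes and clot proteins, was counted with coagulation. Polyadenylated RNA of whole liver was sequenced from fed wild-type (WT) mice and from fed mice lacking Gcg (Gcg KO), the gene of the glucagon precursor, which also encodes glucagon-like peptides, so that their loss cannot be told apart from that of glucagon. There were 6 libraries in each genotype, named WT 1 to WT 6 and Gcg KO 7 to Gcg KO 12. The labels name no strain, sex, age or construction of the allele, and do not say that each library came from its own mouse. The p-values therefore set the genotype difference against the spread between these libraries. That spread may be technical and may not reflect differences between mice.

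Gcg, which is made in pancreatic and gut endocrine cells, was listed at 0 in all 12 libraries, so liver RNA cannot check the genotype labels. Depth, estimated from the step that 1 read makes in low values, was 11600000 to 15000000 reads in WT and 10300000 to 13700000 in Gcg KO. The hepatocyte markers (7 measured, among them Alb, Apoa1 and Ttr) summed to 45840.1 to 59358 RPKM in WT and 43579 to 56252 RPKM in Gcg KO, and 0 of them passed the test. WT 6, Gcg KO 10 and Gcg KO 12 stood apart from the other 9 libraries. Foxa2, a hepatocyte transcription factor, was at 15.4 to 17.3 RPKM in these 3 and at 2.64 to 5.45 RPKM elsewhere. S100a8, a neutrophil gene, was at 0.496 to 1.12 against 7.14 to 24.9 RPKM. Of 10 neutrophil markers, S100a9, Retnlg and Mmp8 were also lowest in these 3 libraries. Ly6g and Elane were not, each at 0.159 RPKM in Gcg KO 10 and 0.317 RPKM in Gcg KO 12. Ngp, Camp, Ltf and Mpo were at or below 0.237 RPKM in all libraries. Calls that changed without these 3 libraries are given with and without them. In whole liver, a change in the number of cells that make a transcript and a change in the RNA per cell cannot be told apart.

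The sequence upstream of the transcription start is shown for the 3 members that rose in Gcg KO and for the fibrinogen genes, the most abundant members, whose ratios to each other varied little between libraries. Promoters were matched by gene identifier to a RefSeq table (build GRCm38.p6), which held 33 of the 43 members; up to 250 bases before the start are printed 5′ to 3′ along the transcribed strand, without bases inside the gene. Capitals mark matches on either strand to TTNNGNAA (C/EBP), TTCNNNGAA (STAT) or TGACG (a half-site of the cAMP response element, CRE), where N is any base.
Cfd (chr10:79890603-79890852, plus strand): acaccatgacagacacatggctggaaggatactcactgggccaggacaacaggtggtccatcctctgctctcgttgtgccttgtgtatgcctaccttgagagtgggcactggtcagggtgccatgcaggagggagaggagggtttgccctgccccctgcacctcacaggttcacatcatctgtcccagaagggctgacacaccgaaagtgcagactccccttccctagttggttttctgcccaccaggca
C1s1 (chr6:124542393-124542609, minus strand): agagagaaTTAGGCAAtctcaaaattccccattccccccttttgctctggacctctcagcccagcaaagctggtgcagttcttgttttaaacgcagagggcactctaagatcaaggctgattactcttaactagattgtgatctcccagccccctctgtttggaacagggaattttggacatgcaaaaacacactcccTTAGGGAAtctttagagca
C1ra (chr6:124512371-124512620, plus strand): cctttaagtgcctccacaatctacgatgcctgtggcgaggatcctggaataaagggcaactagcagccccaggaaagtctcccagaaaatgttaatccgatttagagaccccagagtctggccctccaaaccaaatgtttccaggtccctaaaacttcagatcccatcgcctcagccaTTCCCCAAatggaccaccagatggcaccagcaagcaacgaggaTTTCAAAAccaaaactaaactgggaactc
Fga (chr3:83025903-83026152, plus strand): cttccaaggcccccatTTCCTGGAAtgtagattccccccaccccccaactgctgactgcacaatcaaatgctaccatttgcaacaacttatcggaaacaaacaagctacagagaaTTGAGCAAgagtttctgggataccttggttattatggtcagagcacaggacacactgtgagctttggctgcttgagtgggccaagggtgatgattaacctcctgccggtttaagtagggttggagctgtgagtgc
Fgb (chr3:83049864-83050113, minus strand): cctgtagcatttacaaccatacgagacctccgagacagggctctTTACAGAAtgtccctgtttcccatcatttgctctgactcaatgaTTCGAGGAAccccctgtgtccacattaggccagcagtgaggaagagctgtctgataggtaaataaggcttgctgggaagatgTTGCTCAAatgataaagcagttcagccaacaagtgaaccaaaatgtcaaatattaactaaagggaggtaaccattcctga
Fgg (chr3:83007474-83007723, plus strand): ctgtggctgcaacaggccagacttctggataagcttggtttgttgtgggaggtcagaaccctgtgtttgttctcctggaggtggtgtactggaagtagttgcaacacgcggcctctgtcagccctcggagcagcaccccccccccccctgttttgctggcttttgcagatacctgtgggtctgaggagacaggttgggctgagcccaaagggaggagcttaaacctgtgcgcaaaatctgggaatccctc
Cfd, C1s1 and C1ra held 0, 2 and 2 matches in these windows. The C1s1 and C1ra matches were all to the C/EBP letters. Fga and Fgb each carried C/EBP and STAT matches, and Fgg held 0. Counted per gene over all its listed starts, 6 of 33 members (18.2%) held the STAT letters, against 2197 of 27018 genes (8.13%). The CRE half-site was in 5 of 33 members (15.2%) and in 19.8% of genes, and the C/EBP letters in 16 of 33 (48.5%) and in 40.3%. A match is a description of letters only, and the motif sets can overlap.

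Gcg KO livers had more mRNA for factor D and for both proteases of the C1 complex. Of the coagulation genes 0 passed the test, and whether the cascades differ from each other was not tested. Cfd rose from 0.263 ± 0.218 to 12.1 ± 10.4 RPKM, C1s1 from 159 ± 8.46 to 230.1 ± 8.52 RPKM and C1ra from 143 ± 12.1 to 181 ± 10.03 RPKM (means ± SD, n = 6 libraries per genotype). Expression was tested on log2(RPKM + 0.5) with limma over 11347 genes (mean RPKM of at least 0.5), with p adjusted over all of them and a threshold of 0.05. Of the 23 complement genes 3 rose, 0 fell and 20 did not pass, and of the 20 coagulation genes 0 passed. Of all tested genes 3.87% were called in either direction (1.95% higher and 1.92% lower). Of the 3 that rose, Cfd reached the mean of 0.5 RPKM only through its Gcg KO values. The members were also chosen with earlier results of these data known, so these counts do not test the cascades. Without adjustment, 6 complement and 3 coagulation genes had p below 0.05, against 15.7% of all tested genes. The median log2 fold change was 0.01 for complement, -0.02 for coagulation and 0.01 for all tested genes.

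**Figure D1:**
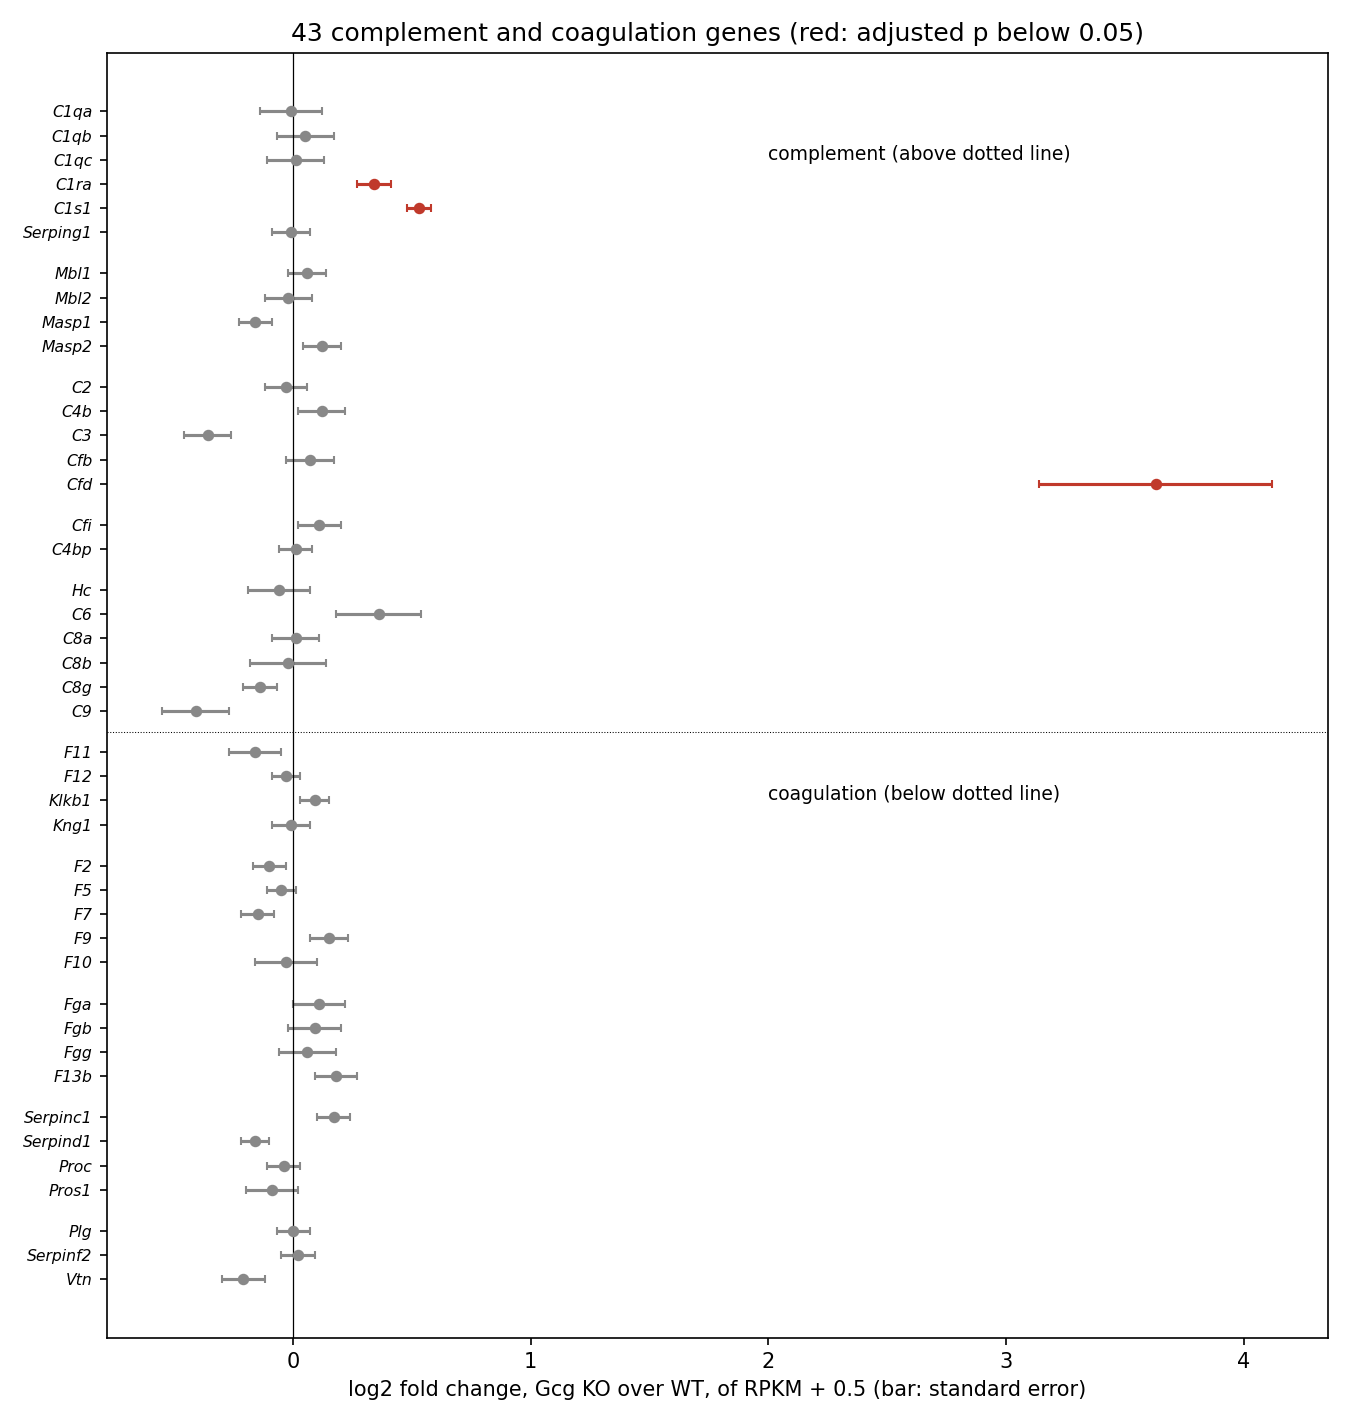
Log2 fold change (Gcg KO over WT, of RPKM + 0.5) of each of the 43 genes, with its standard error as a bar, grouped by role from the C1 complex at the top to fibrinolysis at the bottom, complement above the dotted line and coagulation below it. The 3 red points, Cfd (3.63), C1s1 (0.53) and C1ra (0.34), passed the threshold, and the 40 grey points did not.

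Cfd (Entrez 11537, chromosome 10, 79890853 to 79892655, GRCm38) encodes factor D, the protease that cuts factor B once it is bound to C3b. In WT it was listed at 0.0743, 0.504, 0.0862, 0.266, 0.093 and 0.552 RPKM in WT 1 to WT 6. In Gcg KO 7 to Gcg KO 12 it was at 2.45, 20.9, 3.58, 12.3, 5.59 and 27.9 RPKM. Every Gcg KO library lay above every WT library, and within Gcg KO the values spread widely, from the lowest in Gcg KO 7 to the highest in Gcg KO 12. In each genotype the even-numbered libraries all lay above the odd-numbered ones. The labels do not explain this order, and it was not tested.

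At the estimated depths and a transcript of 922 bases, the WT values of Cfd were worth 0.996 to 6.98 reads and the Gcg KO values 29.9 to 265 reads. The ratio of the mean RPKM was 46.2, and on the log2(RPKM + 0.5) scale, which shrinks low values, the rise was 12.3-fold (log2 fold change 3.63 ± 0.49 SE, limma adjusted p = 7.9e-04). Since its WT mean was below 0.5 RPKM, Cfd entered the test only through its Gcg KO values, unlike the other 42 members, which had at least 10 RPKM in both genotypes. The rise kept its call under all 23 alternatives, with log2 fold changes of 2.97 to 4.78. The gene before it on the same strand, Elane, a neutrophil elastase gene, ends 2636 bases from Cfd and was rare in all libraries. It was listed at 0 in 5 of 6 WT libraries and at 0.0724 RPKM in WT 2. In Gcg KO 7 to Gcg KO 12 it was at 0, 0, 0.0801, 0.159, 0.197 and 0.317 RPKM. These values lie near the floor, and Elane was below the filter and was not tested.

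Because factor D is a major product of fat cells, the adipocyte marker list was read beside it. Of 6 adipocyte markers, Lep, the leptin gene, was listed at 0 in all 12 libraries. Adipoq, the adiponectin gene, was at or below 0.138 RPKM, Plin1, the perilipin of large lipid droplets, at or below 0.0458 RPKM, and Retn, the resistin gene, at or below 0.146 RPKM. Among Gcg KO libraries Adipoq was above 0 in Gcg KO 10 (0.0593 RPKM) and Gcg KO 12 (0.079 RPKM), where Cfd was at 12.3 and 27.9 RPKM, and at 0 in the other 4, among them Gcg KO 8 with Cfd at 20.9 RPKM. In WT, where Cfd was lower throughout, Adipoq was above 0 in 4 of 6 libraries, with its highest values in WT 4 (0.133 RPKM) and WT 6 (0.138 RPKM). Cidec, a lipid droplet protein of fat cells that steatotic hepatocytes also make, rose from 0.518 ± 0.206 to 2.19 ± 1.38 RPKM (limma adjusted p = 0.0125). Cidec was highest in Gcg KO 8 (4.64 RPKM) and Gcg KO 12 (3.03 RPKM), the libraries with the highest Cfd, and their relation was not tested. Fabp4, a fatty acid carrier of adipocytes, macrophages and endothelium, had 9.23 ± 2.05 RPKM in WT against 11.4 ± 2.15 in Gcg KO (limma adjusted p = 0.35), and the whole list summed to 7.73 to 12.6 RPKM in WT and 11.1 to 16.1 RPKM in Gcg KO.

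**Figure D2:**
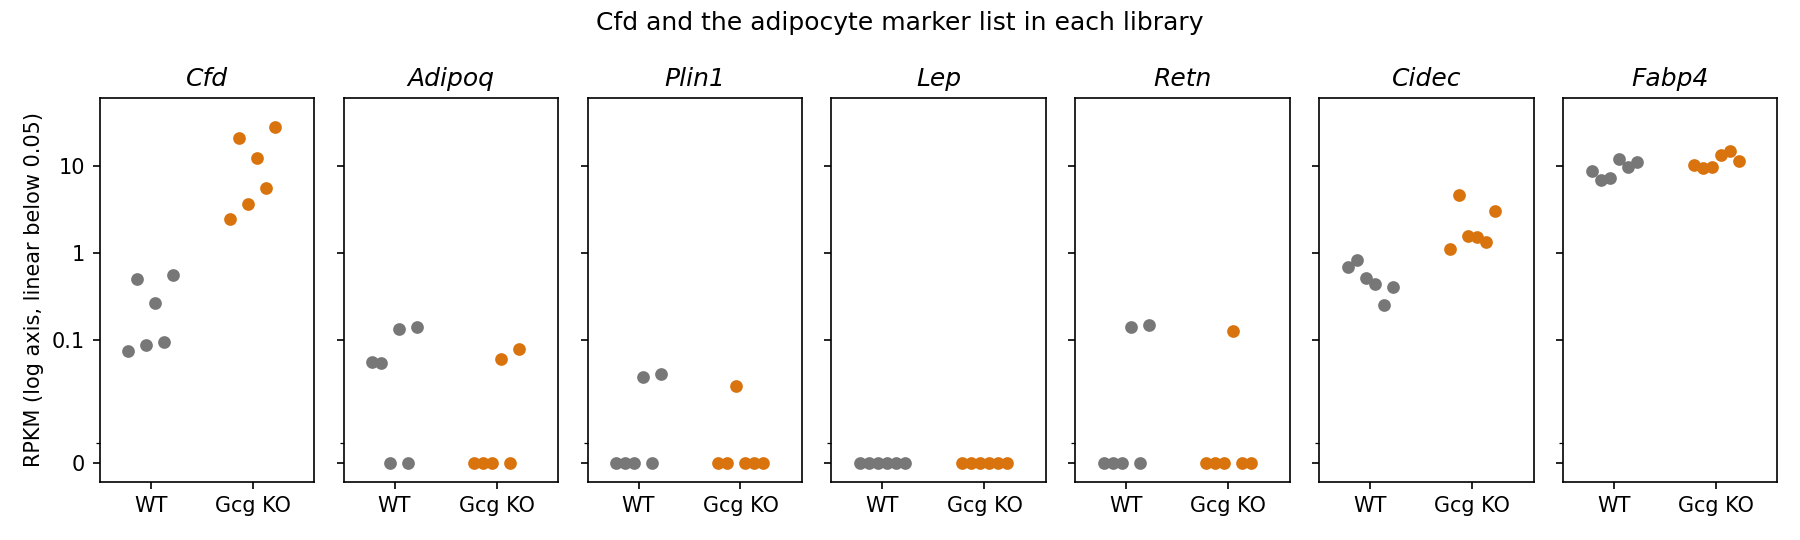
RPKM (log axis, linear below 0.05) of Cfd and of the 6 adipocyte markers per library, 1 point each, with 6 grey points for WT and 6 orange points for Gcg KO. The genotypes are separate for Cfd and Cidec, whereas Adipoq, Plin1, Lep and Retn lie at or below 0.146 RPKM in both genotypes.

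The C1 complex joins C1q, which binds antibody, to the proteases C1r and C1s, and is blocked by the C1 inhibitor Serping1. C1s1 (Entrez 50908), one of the mouse genes for C1s, was at 156.4, 145, 167, 166, 165 and 156.5 RPKM in WT 1 to WT 6. It was at 238, 225, 239.5, 220.1, 236 and 223 RPKM in Gcg KO 7 to Gcg KO 12. The groups did not overlap, and the log2 fold change was 0.53 ± 0.05 SE (1.44-fold, limma adjusted p = 7.7e-05). It kept its call under all 23 alternatives.

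C1ra (Entrez 50909), the gene for C1r, was at 151, 121.5, 144, 157, 142 and 145 RPKM in WT 1 to WT 6. It was at 192, 164.5, 181, 183, 189.8 and 176 RPKM in Gcg KO 7 to Gcg KO 12. Here too the groups were separate, as was the case for 3 of the 43 members and for 3.09% of all tested genes. These 3 include Cfd, which entered the test only through its Gcg KO values. The log2 fold change was 0.34 ± 0.07 SE (limma adjusted p = 0.0116), and C1ra missed the threshold without WT 6, Gcg KO 10 and Gcg KO 12, where its log2 fold change was 0.35 and fewer libraries were tested (adjusted p = 0.0672). In that smaller set Cfd and C1s1 were the complement genes called, both higher, against 2.68% of all tested genes called (1.15% higher and 1.52% lower).

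C1ra and C1s1 lie next to each other on chromosome 6, at 124512621 to 124523440 and 124530344 to 124542392 (GRCm38), on opposite strands, with 6903 bases between them. The coding genes of the locus, in order, are C1rl, C1ra, C1s1, C1rb and C1s2. C1rl, a C1r-like protease gene 1977 bases before C1ra, had 51.6 ± 2.37 RPKM in WT against 44.6 ± 2.94 in Gcg KO (log2 fold change -0.21 ± 0.06 SE, limma adjusted p = 0.0592). Its estimate was on the other side of 0 from those of C1ra and C1s1, and 5 of 6 Gcg KO libraries lay below every WT library.

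C1rb and C1s2 are near copies of C1ra and C1s1: of the 50-base windows of the C1ra transcript 48% occur unchanged in C1rb, and of those of the C1s1 transcript 24.3% occur in C1s2. No source used here says how the authors divided reads between such copies, so the values of C1ra and C1s1 carry that uncertainty. C1rb was at 0.804 RPKM in WT against 0.826 in Gcg KO, and C1s2 at 0.459 and 0.787 RPKM, so the reads assigned to the copies were few beside those of C1ra and C1s1.

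C1q and the C1 inhibitor did not pass the test. Serping1 had 374 ± 38.3 RPKM in WT against 369.6 ± 23.8 in Gcg KO (log2 fold change -0.01 ± 0.08 SE, limma adjusted p = 0.963; 0.07 with quantile normalization and 0.01 without the 3 libraries). C1qa was at 31.8, 18.3, 20.4, 30.1, 21.8 and 26.9 RPKM in WT 1 to WT 6 and at 26.7, 21.7, 19.9, 24.9, 27.5 and 25.3 RPKM in Gcg KO 7 to Gcg KO 12. C1qb was at 25.6, 17.3, 22.2, 30, 23.3 and 24.2 RPKM in WT 1 to WT 6 and at 24.3, 20.6, 20.6, 26.3, 29.8 and 25.7 RPKM in Gcg KO 7 to Gcg KO 12. Its neighbour on chromosome 4, C1qc, encodes the last of the chains that form the C1q molecule. C1qc was at 30.5, 18.9, 25.2, 29.4, 27.2 and 26.2 RPKM in WT and at 27.5, 23.3, 19.9, 26.9, 31.3 and 29.3 RPKM in Gcg KO. Gcg KO 11 was the highest Gcg KO library for each chain. The 3 chains overlapped between genotypes, with log2 fold changes of -0.01 to 0.05 and 95% confidence intervals from -0.30 to 0.32.

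All 3 C1q chains were lowest in WT 2 within WT, and so were 8 of 10 Kupffer cell and macrophage markers, Marco and Aif1 being the exceptions. This order was not particular to macrophage genes, since WT 2 was the lowest WT library for 30 of the 43 members. Clec4f, a lectin of Kupffer cells, was at 19.7 RPKM in WT 2 against 26.6 to 42.9 RPKM in the other WT libraries. Over the genotypes, 0 of these 10 markers passed the test, and they summed to 89.3 to 154 RPKM in WT and 102 to 167 RPKM in Gcg KO.

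**Figure D3:**
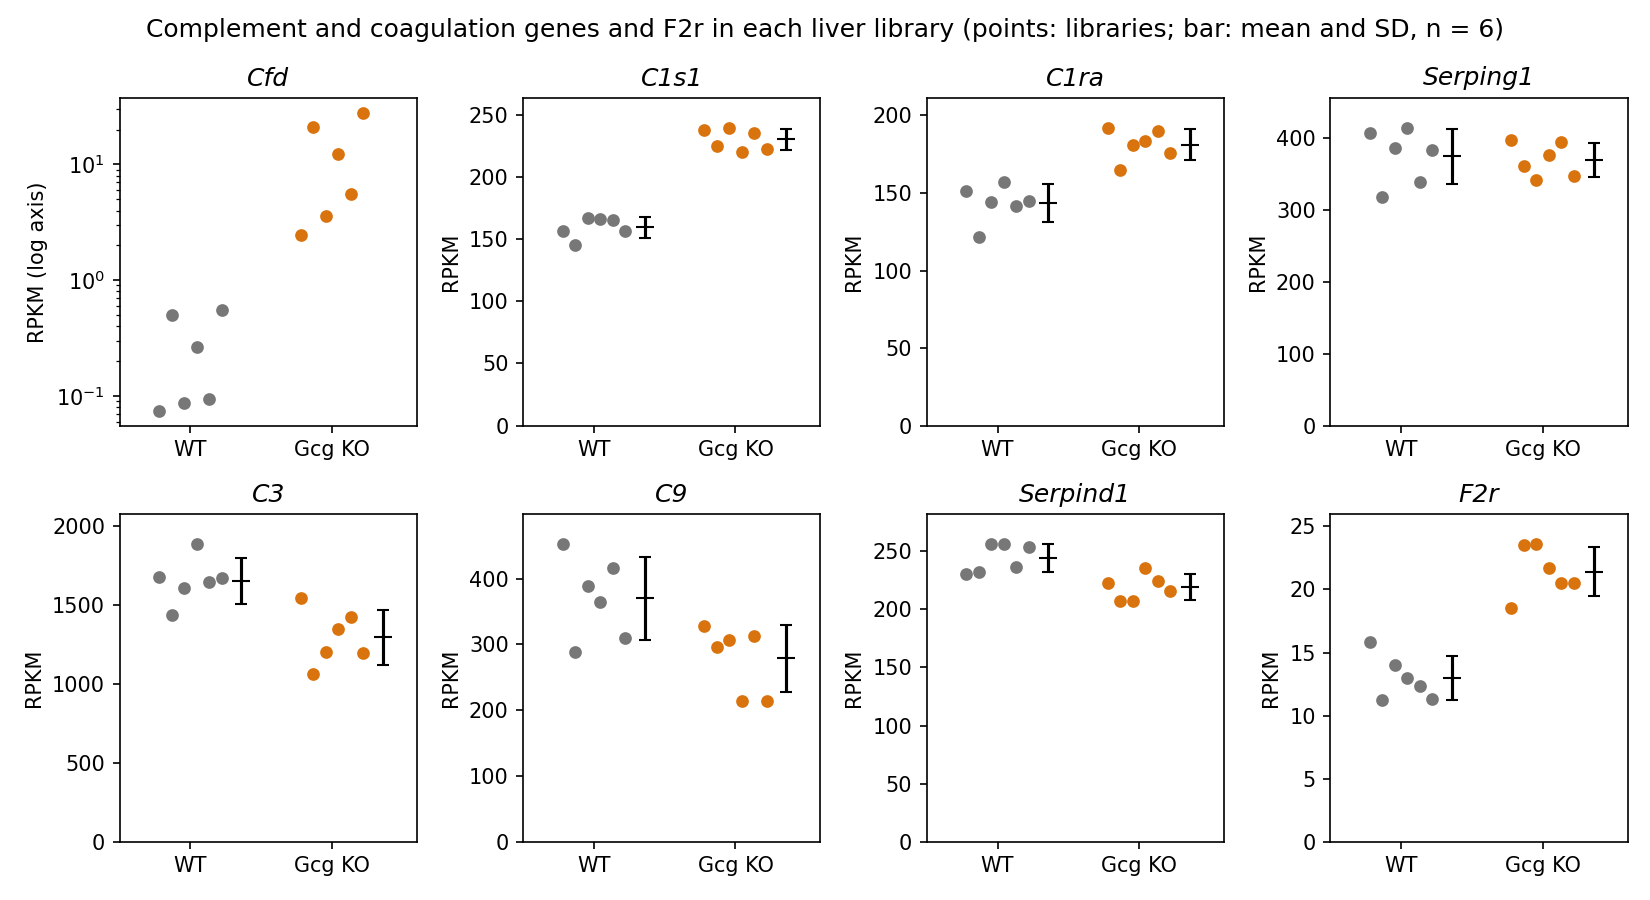
RPKM of 8 genes, with 1 point per library (grey for WT, orange for Gcg KO, 6 each) and a black bar for mean and SD; the axis for Cfd is logarithmic and has no bar. The groups are separate for Cfd, C1s1, C1ra and F2r and overlap for Serping1, C3, C9 and Serpind1.

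The lectin route, in which Mbl1 and Mbl2 bind mannose and Masp1 and Masp2 cut the next components, had 4 members of which 0 passed. Mbl1 and Mbl2 were at 147 ± 15.8 and 159 ± 19.98 RPKM in WT and at 154 ± 12.46 and 156.8 ± 18.9 RPKM in Gcg KO. Masp2, which cuts C4 and C2, had 105 ± 10.7 and 114 ± 11.2 RPKM. Masp1 had the lowest unadjusted p of the 4, with 37.6 ± 3.01 RPKM in WT against 33.6 ± 2.78 in Gcg KO (log2 fold change -0.16 ± 0.07 SE, limma adjusted p = 0.284). The 4 log2 fold changes lay between -0.16 and 0.12.

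C3, on which all routes meet, was the most abundant complement transcript and was lower on average in Gcg KO without passing the threshold. It was at 1677, 1433, 1604, 1885, 1646 and 1668 RPKM in WT 1 to WT 6. It was at 1542.5, 1066, 1200.3, 1347, 1421 and 1195 RPKM in Gcg KO 7 to Gcg KO 12. Of the Gcg KO libraries 5 lay below every WT library, and Gcg KO 7 lay above WT 2. The log2 fold change was -0.36 ± 0.10 SE (95% confidence interval -0.56 to -0.15, limma adjusted p = 0.0556), and adjusted p ranged from 0.0318 to 0.191 over 23 alternatives, 5 of which passed.

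The other convertase parts had values close to each other in both genotypes. C4b, a C4 gene, had 286 ± 43.3 RPKM in WT against 308 ± 29.1 in Gcg KO, C2 had 52.5 ± 7.01 and 51.1 ± 4.72 RPKM, and Cfb, factor B, had 475 ± 59.2 and 498 ± 57.2 RPKM. Their log2 fold changes were 0.12 ± 0.10, -0.03 ± 0.09 and 0.07 ± 0.10 SE. Factor B is the substrate of factor D, and its groups overlapped (limma adjusted p = 0.804). C4a, a close copy of C4b, had 10.1 ± 5.09 RPKM in WT against 7.26 ± 3.36 in Gcg KO, and C4b and C4a are uncertain for the same reason as the C1 proteases.

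Control of C3b and C4b rests on factor I (Cfi) with cofactors such as C4-binding protein (C4bp). Cfi had 250.4 ± 28.3 RPKM in WT against 270.0 ± 30.2 in Gcg KO, and C4bp had 253 ± 19.4 and 255.5 ± 21.6 RPKM. Neither passed, with log2 fold changes of 0.11 ± 0.09 and 0.01 ± 0.07 SE.

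The terminal components, C5 (gene Hc) to C9, assemble into the membrane attack complex, and 0 of 6 members passed. C9, which forms its ring, was at 452.5, 288, 389.5, 365, 416 and 309 RPKM in WT 1 to WT 6. It was at 328, 297, 307, 215, 313 and 214 RPKM in Gcg KO 7 to Gcg KO 12. The lowest values were those of Gcg KO 10 and Gcg KO 12, and WT 6 was the second lowest of its group. The order was not particular to these libraries. In each genotype all even-numbered libraries, WT 2 and Gcg KO 8 among them, lay below the odd-numbered ones. The labels do not explain this, and it was not tested. The log2 fold change was -0.41 ± 0.14 SE (limma adjusted p = 0.141), and without the 3 libraries that stood apart it was -0.28 (adjusted p = 0.286).

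C6, which binds C5b, was the most variable terminal gene in Gcg KO, at 179, 149, 212, 111, 250.0 and 133 RPKM in Gcg KO 7 to Gcg KO 12 against 95.2 to 149 RPKM in WT. Its log2 fold change was 0.36 ± 0.18 SE (limma adjusted p = 0.367). It was 0.57 without WT 6, Gcg KO 10 and Gcg KO 12 (adjusted p = 0.112) and 0.24 without Gcg KO 11 (adjusted p = 0.495), and 3 Gcg KO libraries exceeded every WT library. Hc had 259.6 ± 45.6 and 249 ± 39.2 RPKM. Like C9, it was lower in even-numbered libraries (199.2 to 245.2 RPKM) than in odd-numbered ones (255.3 to 326.1 RPKM), over both genotypes. C6 had this order within Gcg KO but not fully within WT.

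C8, which anchors the complex in the membrane, is made of 3 chains. C8a was at 273, 199.5, 289.9, 264, 238 and 249.9 RPKM in WT 1 to WT 6 and at 307, 247, 260.4, 223, 253.5 and 235 RPKM in Gcg KO 7 to Gcg KO 12. C8b was at 237, 140.3, 219.7, 229, 213 and 169 RPKM in WT and at 197, 176.5, 197, 156.5, 292 and 176 RPKM in Gcg KO. WT 2 was the lowest WT library for both, and Gcg KO 11 stood out for C8b alone. C8g, a lipocalin, was at 298, 261, 246, 293, 266.5 and 303 RPKM in WT and at 247, 229.9, 253, 279, 260.3 and 237 RPKM in Gcg KO, where 2 libraries lay below every WT library. Log2 fold changes were 0.01 ± 0.10 SE for C8a, -0.02 ± 0.16 SE for C8b and -0.14 ± 0.07 SE for C8g (limma adjusted p = 0.975, 0.975 and 0.338).

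Fibrinogen chains Fga, Fgb and Fgg were the 3 most abundant members, and together they made up 1.03% to 1.34% of the summed RPKM in WT and 1.03% to 1.605% in Gcg KO. Fga was at 3023, 2256, 2701, 2817, 2581 and 2551 RPKM in WT 1 to WT 6 and at 3352, 2316, 2720.1, 2756, 3539 and 2609 RPKM in Gcg KO 7 to Gcg KO 12. Gcg KO 7 and Gcg KO 11 lay above all WT libraries and the rest overlapped with them. The log2 fold change was 0.11 ± 0.11 SE (limma adjusted p = 0.716). Fgb was at 2991, 2218, 2616, 2931.5, 2497 and 2368 RPKM in WT and at 3132, 2216, 2537, 2773, 3479.8 and 2566 RPKM in Gcg KO. Fgg was at 2353, 1748, 2071, 2382, 1914 and 1913 RPKM in WT and at 2441, 1701, 2016, 2112, 2736 and 1966 RPKM in Gcg KO. For these chains too the highest libraries were Gcg KO 11 and Gcg KO 7, and the log2 fold changes were 0.09 ± 0.11 and 0.06 ± 0.12 SE (limma adjusted p = 0.791 and 0.883). F13b, the carrier subunit of the fibrin cross-linking factor 13, had 70.7 ± 5.61 and 80.5 ± 9.36 RPKM (log2 fold change 0.18 ± 0.09 SE, limma adjusted p = 0.321).

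The contact system, which starts clotting on surfaces and releases bradykinin from kininogen, overlapped between genotypes in all 4 members. Kng1, kininogen, had 1118 ± 99.6 RPKM in WT against 1115 ± 112 in Gcg KO, and 18% of its 50-base windows occur in Kng2, so that its value shares the uncertainty of near copies. F12 had 195 ± 15.1 and 190.4 ± 11.2 RPKM, Klkb1, prekallikrein, 92.4 ± 5.81 and 98.6 ± 5.95 RPKM, and F11 44.0 ± 7.08 and 39.2 ± 5.11 RPKM. Log2 fold changes lay between -0.16 and 0.09.

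Among the proteases and cofactor that lead to thrombin, F2, prothrombin, was the most abundant, with 645 ± 49.4 RPKM in WT against 602 ± 35.2 in Gcg KO. F10 had 157 ± 19.3 and 156 ± 34.3 RPKM, and F5, the cofactor of factor Xa, 100.2 ± 6.73 and 96.9 ± 5.26 RPKM. F9 and F7, the enzymes of the intrinsic and the tissue factor route, were rarer, with 61.7 ± 5.86 and 43.05 ± 3.64 RPKM in WT and 68.6 ± 6.76 and 38.7 ± 3.17 RPKM in Gcg KO. The 5 log2 fold changes lay between -0.15 and 0.15, and 0 passed.

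The anticoagulants gave the smallest p-values of coagulation, and 0 of 4 passed after adjustment. Serpind1, heparin cofactor II, was at 230.1, 232, 256.1, 256, 237 and 253.5 RPKM in WT 1 to WT 6. It was at 223, 207, 207.4, 236, 224 and 216 RPKM in Gcg KO 7 to Gcg KO 12. The ranges overlapped only through Gcg KO 10 and the 2 lowest WT libraries, and the log2 fold change was -0.16 ± 0.06 SE (limma adjusted p = 0.160). Serpinc1, antithrombin, had 869 ± 76.2 RPKM in WT against 976 ± 53.3 in Gcg KO (log2 fold change 0.17 ± 0.07 SE, limma adjusted p = 0.236). Proc, protein C, had 217 ± 21.1 and 211 ± 15.6 RPKM, and Pros1, its cofactor protein S and the rarest coagulation member, 17.4 ± 1.70 and 16.5 ± 2.91 RPKM.

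Plg, plasminogen, had 887 ± 54.7 RPKM in WT against 889 ± 63.5 in Gcg KO, and Serpinf2, the plasmin inhibitor alpha-2-antiplasmin, 303 ± 16.8 and 307 ± 27.5 RPKM. Vtn, vitronectin, had 1295 ± 162 and 1113 ± 84.4 RPKM (log2 fold change -0.21 ± 0.09 SE, limma adjusted p = 0.25). Over the 20 coagulation genes the log2 fold changes ran from -0.21 to 0.18, and their 95% confidence intervals from -0.40 to 0.37. In 19 of the 20 the log2 fold change was under 0.2 in size, as in 17 of 23 complement genes and 8804 of 11347 genes tested.

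Whether the parts of 1 protein, or a protease and its inhibitor, kept their proportion was tested for 9 pairs as the log2 ratio within each library, by exact permutation of the genotype labels (two-sided, p adjusted over the 9 pairs). The 6 ratios between chains of C1q, C8 and fibrinogen overlapped between genotypes and did not pass. Fga/Fgb was 0.961 to 1.08 in WT and 0.994 to 1.07 in Gcg KO, and Fgg/Fgb was 0.766 to 0.812 and 0.762 to 0.794 (exact permutation test, p = 0.515 and 0.0909, adjusted p = 0.726 and 0.273). C8a/C8b was wider, at 1.12 to 1.48 in WT and 0.867 to 1.56 in Gcg KO, where Gcg KO 11 was the only library below 1. C8g/C8b ran from 1.12 to 1.86 and from 0.891 to 1.78. The SD of the log2 ratio over libraries of 1 genotype was 0.02 to 0.05 for the fibrinogen pairs and 0.17 to 0.32 for the C8 pairs.

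For protease and inhibitor, 2 of 3 pairs passed. C1s1/Serping1 was 0.385, 0.457, 0.432, 0.401, 0.488 and 0.409 in WT 1 to WT 6 and 0.599, 0.623, 0.702, 0.586, 0.596 and 0.641 in Gcg KO 7 to Gcg KO 12, without overlap. The mean log2 ratio was higher by 0.54 in Gcg KO (exact permutation test, p = 0.00216, the smallest it can give, adjusted p = 0.00974). With C1s1 higher by 0.53 and Serping1 at -0.01, this difference restates the rise of C1s1 and is no separate result. F2/Serpinc1, prothrombin over antithrombin, was 0.673 to 0.802 in WT and 0.566 to 0.644 in Gcg KO, also without overlap, a log2 difference of -0.27 (exact permutation test, p = 0.00216, adjusted p = 0.00974), although neither gene passed on its own. Plg/Serpinf2 was 2.81 to 3.07 and 2.77 to 3.14 (exact permutation test, p = 0.645, adjusted p = 0.726). Without WT 6, Gcg KO 10 and Gcg KO 12 the differences of C1s1/Serping1 and F2/Serpinc1 were 0.54 and -0.26, and both had an adjusted p of 0.0714, with fewer arrangements to test.

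**Figure D4:**
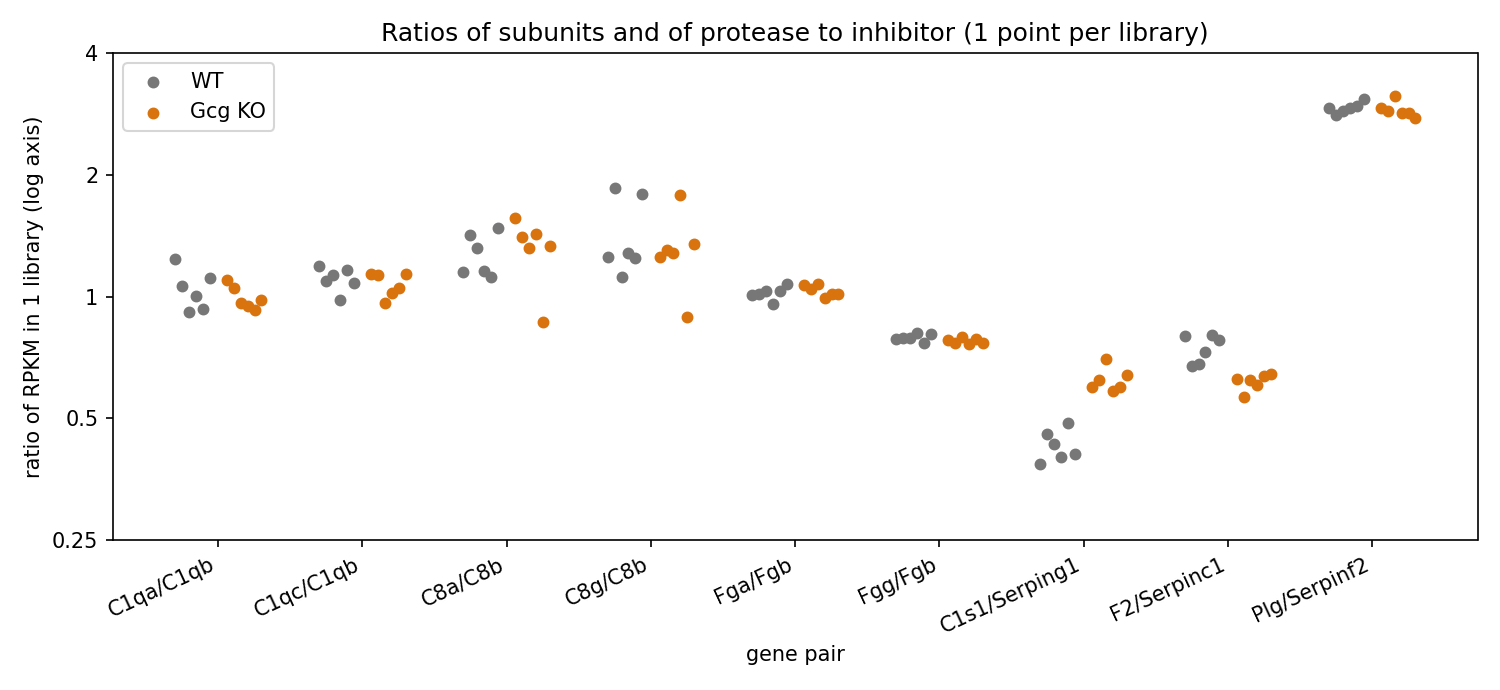
Ratio of the RPKM of 2 genes within each library (log axis), 1 point per library, for 6 pairs of chains of 1 protein and 3 pairs of protease and inhibitor, with grey for WT and orange for Gcg KO. Groups are separate for C1s1/Serping1 (0.385 to 0.488 in WT, 0.586 to 0.702 in Gcg KO) and F2/Serpinc1 (0.673 to 0.802 and 0.566 to 0.644) and overlap for the other 7 pairs.

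Libraries of 1 genotype differed from each other across many members at once. WT 2 was the lowest WT library for 30 of 43 members, 18 of them complement genes, and WT 1 was the highest for 14 of 23 complement genes. Within Gcg KO, Gcg KO 8 was the lowest for 21 members and Gcg KO 11 the highest for 18. Together the 43 members made up 2.80% to 3.50% of the summed RPKM in WT and 2.79% to 3.67% in Gcg KO. The acute phase list (14 genes outside both cascades, among them the serum amyloids Saa1 and Saa2 and the haptoglobin gene Hp) had a mean log2 value of 8.06 in WT 1, 7.42 in Gcg KO 7, and 6.31 to 7.22 in the other 10 libraries. WT 2 was the lowest WT library for that list too, at 6.36, and its part in the spread of the members was not tested. The coefficient of variation within a genotype, Cfd aside, was 5.07% to 22.1% in WT (median 9.99%) and 3.70% to 30.2% in Gcg KO (median 9.82%).

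**Figure D5:**
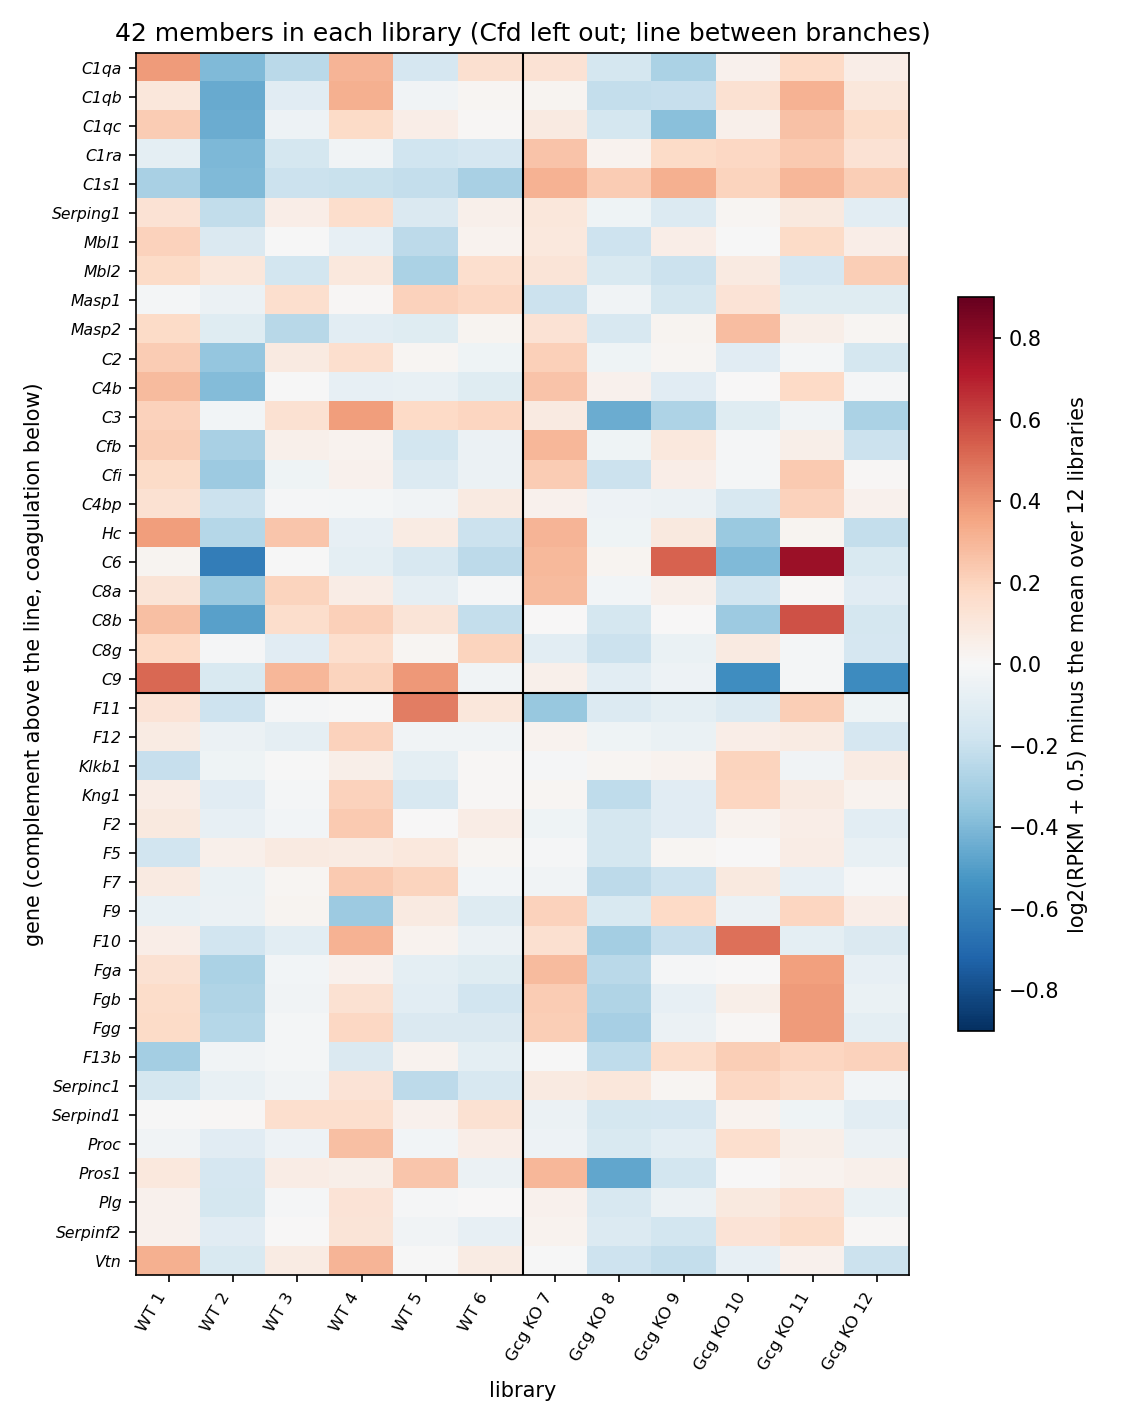
Log2(RPKM + 0.5) of 42 members (Cfd left out) minus the mean of each gene over the 12 libraries, 1 column per library, red above and blue below the mean, complement above the horizontal line and coagulation below it. The rows of C1ra and C1s1 change side at the line between genotypes, the WT 2 column is mostly blue, and the rows of Fga, Fgb and Fgg follow each other across libraries.

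Of 20 tested coagulation genes that are no members, read from lists, 1 rose and 0 fell, where 3.87% of all tested genes were called. It was F2r, the thrombin receptor PAR1, which rose from 12.96 ± 1.76 to 21.4 ± 1.95 RPKM, at 11.2 to 15.9 RPKM in WT and 18.6 to 23.6 RPKM in Gcg KO (log2 fold change 0.71 ± 0.09 SE, limma adjusted p = 4.2e-04). The median log2 fold change of the 20 genes was 0.05. The vitamin K cycle genes Ggcx, Vkorc1 and Vkorc1l1, which prepare F2, F7, F9, F10, Proc and Pros1 for calcium binding, had log2 fold changes of 0.00 to 0.10, and 0 passed.

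Beside them, the acute phase list held 1 gene that rose and 1 that fell of 14 tested, with a median log2 fold change of -0.25. Of all tested genes 1.95% were called higher and 1.92% lower. Cp, ceruloplasmin, the copper carrier of plasma, rose from 311 ± 39.3 to 486 ± 49.3 RPKM (limma adjusted p = 8.1e-04). Orm2, an orosomucoid of a multigene family and thus uncertain, fell from 16.0 ± 8.02 to 6.58 ± 2.68 RPKM (limma adjusted p = 0.0382). Orm3, of the same family and outside the list, was called in the opposite direction, higher in Gcg KO. Whether the list differs from the members was not tested.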

How the data were processed

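Whole-liver RNA of 6 WT and 6 Gcg KO libraries was analysed. The authors deposited 1 table of RPKM values for 24475 genes, with a column per library; the unit comes from the table's name and its values. Per the submitters' processing notes, CASAVA 1.8.2 and FastQC were used with build GRCm38; no source used here gives the aligner, counting tool or annotation. Depth was estimated from the step that 1 read makes in RPKM times transcript length, over genes with 1 annotated transcript. Of the low values, 52.3% to 57.3% per library lay within 0.05 of a whole read, too few to recover counts, so no count test was run.

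Values were tested as log2(RPKM + 0.5) with limma 3.58.1 under R 4.3.3 (two-sided, variance trended on the mean, no covariates). The test covered 11347 genes with a mean of at least 0.5 RPKM, with Benjamini-Hochberg adjustment. On simulated data the procedure recovered 56 of 79 genes changed 1.5-fold (70.9%). Smaller changes were not simulated, so a member that did not pass may still differ by a small fold. Ratios were tested by exact permutation. Alternatives changed the pseudocount (0.1 or 1), the filter (none, a mean of 2 RPKM, or 0.5 RPKM in 1 genotype), the scaling, the variance model and the libraries. The members and lists were chosen with earlier results of these data known. Values per library were given for Cfd, C1s1, every member past the threshold, the most abundant member of each cascade, the chains of C1q, C8 and fibrinogen, and the 3 members with the lowest unadjusted p that missed the threshold (C3, C9 and Serpind1). The choice of C6 was made with its values in view. Further complement and regulator genes are not all reported here.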

Additional observations from a re-analysis of the deposited data

Results flagged for a closer look

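Within each genotype, the highest and the lowest library of each member were compared with the others by Dixon's ratio on log2(RPKM + 0.5). Of 86 groups of 6 libraries, 2 held a library set apart from the rest, and chance alone sets apart about 1 group in 20. C8b was at 292 RPKM in Gcg KO 11 and at 156.5 to 197 RPKM in the other Gcg KO libraries. F5 was at 87.1 RPKM in WT 1, the library with the highest acute phase values, and at 99.4 to 105 RPKM in the other WT libraries.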

How the results depend on the processing

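Of 23 alternatives, C1s1 and Cfd kept their call in all 23 and C1ra in 22. The count of complement genes called was 3 to 4 when each library was left out in turn and 2 without WT 6, Gcg KO 10 and Gcg KO 12. C3 joined them as lower at a mean of at least 2 RPKM, with robust limma, and without WT 2, Gcg KO 7 or Gcg KO 11. The coagulation count stayed at 0 throughout. The count over all genes, 439, was 280 to 472 with 1 library left out (280 without WT 3) and 304 without the 3 libraries. No paired analysis was possible because the library numbers 1 to 6 and 7 to 12 are not shared between genotypes. Without the 3 libraries the differences in log2 ratio were 0.54 for C1s1/Serping1 and -0.26 for F2/Serpinc1, both with an exact permutation adjusted p of 0.0714 from fewer samples, and 0.02 for Plg/Serpinf2, of opposite sign. With 1 library left out they were 0.51 to 0.58, -0.30 to -0.24 and -0.04 to -0.0002, and C8a/C8b was -0.02 to 0.15.

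Log2 fold changes near 0 changed sign, and the cause was not tested. With array weights C1qa was 0.04, C2 0.02 and Serpinf2 -0.004. With median centring C1qc was -0.02, C4bp -0.01, C8a -0.01, Plg -0.02 and Serpinf2 -0.01. With quantile normalization Serping1 was 0.07, Mbl2 0.05, Hc 0.03, C8b 0.05, F12 0.04, Kng1 0.05, F10 0.04, Fgb -0.02 and Proc 0.04. Without the 3 libraries C1qc was -0.04, Serping1 0.01, C2 0.02, Hc 0.02, C8b 0.05, Plg -0.004 and Serpinf2 -0.03. With 1 library left out the ranges were -0.09 to 0.06 for C1qa, -0.04 to 0.12 for C1qb, -0.08 to 0.08 for C1qc, -0.06 to 0.02 for Serping1, -0.08 to 0.02 for Mbl2, -0.10 to 0.01 for C2, -0.03 to 0.04 for C4bp, -0.12 to 0.01 for Hc, -0.05 to 0.06 for C8a and -0.14 to 0.04 for C8b. They were -0.05 to 0.01 for F12, -0.04 to 0.04 for Kng1, -0.13 to 0.03 for F10, -0.01 to 0.12 for Fgg, -0.07 to 0.01 for Proc, -0.03 to 0.03 for Plg and -0.02 to 0.05 for Serpinf2. Depth limits Cfd in WT, where it rested on 0.996 to 6.98 estimated reads.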
